A study of Mus musculus with 9 samples.

Results

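The 10 genes described here encode the proteins that move calcium out of cells across the plasma membrane, and they were taken from the 54532 genes of each deposited table by gene name. They form 3 families. Slc24a2, Slc24a3 and Slc24a4 encode potassium-dependent sodium/calcium exchangers (NCKX), Slc8a1, Slc8a2 and Slc8a3 encode sodium/calcium exchangers (NCX), and Atp2b1, Atp2b2, Atp2b3 and Atp2b4 encode plasma membrane calcium ATPases (PMCA). A neuron keeps its resting cytosolic calcium far below the level outside the cell, so every opening of a calcium channel has to be followed by removal. The exchangers use the sodium gradient that the sodium pump maintains and move much calcium when it is high, whereas the ATP-driven PMCA pumps bind calcium more tightly and act at levels near rest. In the hippocampus both kinds of transporter shape how long calcium stays raised in synaptic terminals and dendritic spines after activity.

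RNA was measured by bulk sequencing of the hippocampus of C57BL/6 mice in 3 groups of 3. The mice were bought at 6 to 8 weeks of age, and the labels call them male although the study's methods speak of females. Con mice ate a standard diet, and HMD mice ate a high-methionine diet for 8 weeks, which raises the supply of the amino acid that gives rise to homocysteine. Bet+HMD mice ate that diet for 8 weeks and then had 2.5% (w/v) betaine, a methyl donor that returns homocysteine to methionine, in the drinking water for 2 weeks. None of the groups carried an engineered allele. The strain labels of 2 Bet+HMD samples read C57BL/7 and C57BL/8, and whether the methionine diet continued during the betaine weeks is not given in the sources used here. HMD was compared with Con to ask what the diet does, and Bet+HMD with HMD to ask what goes with betaine. Bet+HMD against Con differs in both diet and betaine. If tissue was taken at the end of each schedule, Bet+HMD mice were also 2 weeks older, which cannot be told apart from betaine.

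Values are FPKM, fragments scaled to the length of the gene and the size of the library. The test of HMD against Con used the earlier of 2 deposited tables. Bet+HMD libraries are present only in the later table, which holds the other 6 libraries again, so that a batch and betaine cannot be told apart. Libraries held 16031464 to 18566712 assigned reads. Between 25315 and 25663 genes had a read in the Bet+HMD libraries of the later table, against 20816 to 23272 in the others, and the 3 Bet+HMD libraries lay much closer to each other. Read counts of 2 libraries of this group differed by a chi-square of 3.00 to 4.21 per degree of freedom, against 11.8 to 42.2 in the other groups of that table, and no source states whether these samples were separate animals or pools. p-values measure only the spread between these samples. HMD replicate 1 also stood apart, with 111 FPKM summed over 10 thalamus markers in the later table against 22.4 to 48.9 in the other Con and HMD libraries and 33.4 to 35.0 in Bet+HMD. Markers of hippocampal neurons (Prox1 of the dentate gyrus, Wfs1 of CA1 and Bok of CA3) were present in every library.

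All 10 genes were detected in every library, with at least 252 reads for the lowest of them. Slc24a2 and Atp2b1 gave the highest levels. In the later table Atp2b1 was at 77.7 ± 5.77 FPKM in Con (SD, n = 3) and Slc24a2 at 73.7 ± 6.50, and their ranges overlapped in all 3 groups. Slc8a2 led the NCX family at 52.2 ± 6.26 FPKM in Con and overlapped with Slc24a3 at 48.1 ± 0.939. Atp2b3 and Atp2b2 followed at 37.2 ± 2.03 and 33.1 ± 4.24 FPKM and overlapped each other. Slc8a1, at 17.7 ± 2.49 FPKM, lay above Atp2b4 at 13.0 ± 1.79 with no overlap. The lowest were Slc24a4 at 6.60 ± 0.242 FPKM and Slc8a3 at 2.93 ± 0.184, and neither overlapped its neighbour. The position of Slc8a1 rests on its gene length in the deposited table, which was 2934 bases where the exons of GENCODE M21 cover 18807 bases. For the other 9 genes both lengths were equal. By group means, the order was not the same in the other groups. In HMD Slc24a2 lay above Atp2b1 and Slc24a3 above Slc8a2, each with overlapping ranges, and Atp2b2 lay above Atp2b3 without overlap. In Bet+HMD Slc24a2 was again above Atp2b1, Atp2b2 was above Atp2b3, Slc24a3 lay below both, and Atp2b4 lay above Slc8a1.

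**Figure D1:**
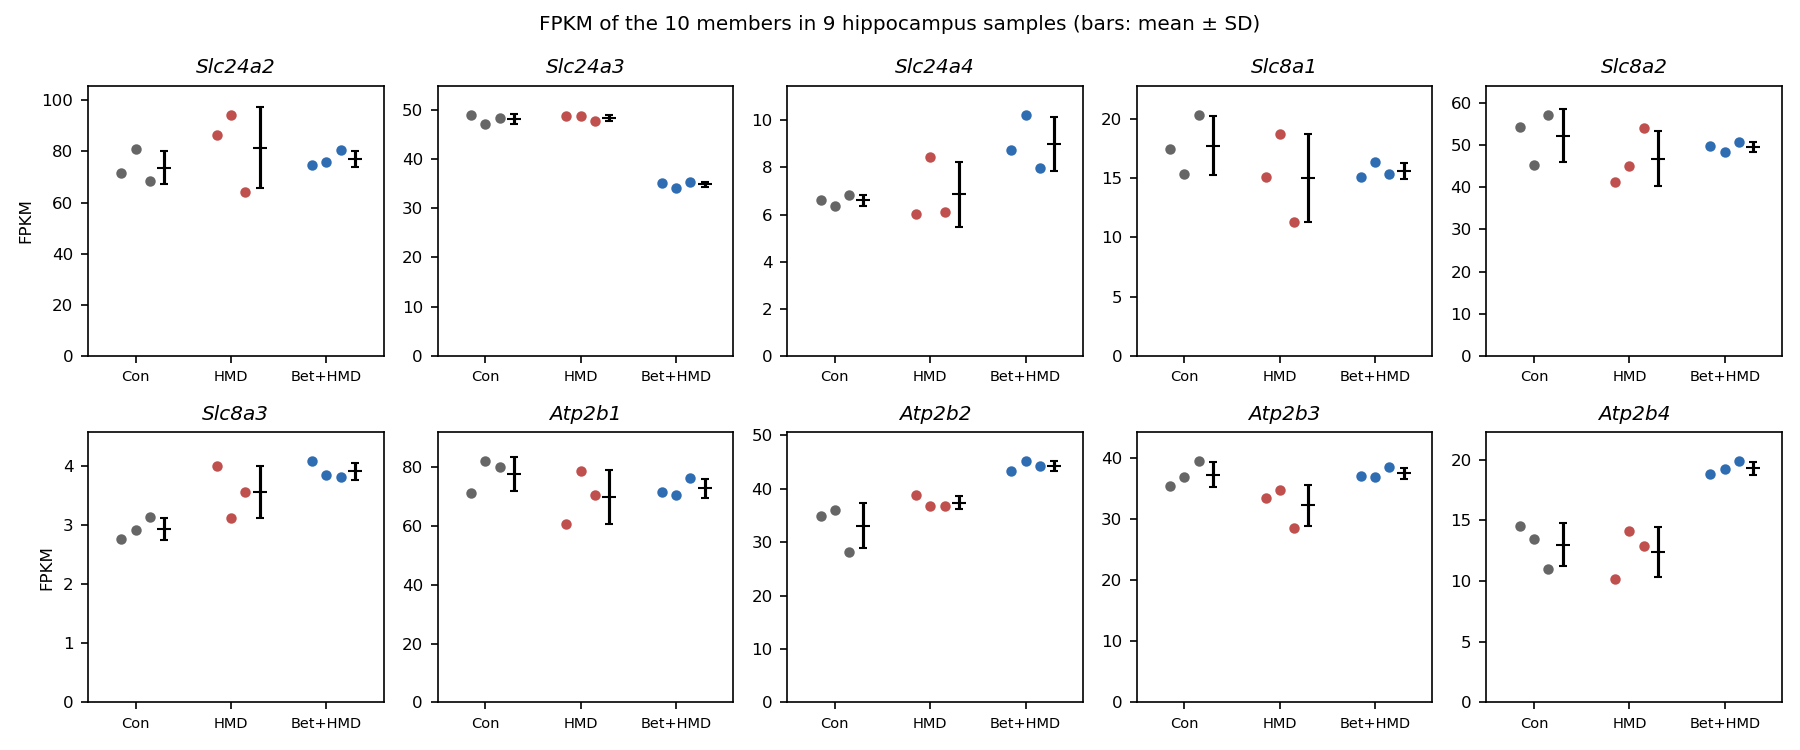
FPKM (y axis of each panel, from 0) of the 10 genes in the 9 libraries of the later table, with 1 point per library and the mean ± SD (n = 3) at the right of each group. Slc24a3 lies between 34.2 and 35.2 in Bet+HMD and between 47.1 and 49.0 elsewhere, and Atp2b4 lies above its other values in all 3 Bet+HMD libraries.

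The high-methionine diet alone was not accompanied by a called change in any calcium extrusion gene. Against Con, 0 of the 10 passed an adjusted p of 0.05 in limma, and 0 had an unadjusted p under 0.05. Over all 12989 genes tested the shares were 0% and 4.56%. Adjusted p-values of the 10 ran from 0.980 to 0.993.

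Slc24a2, which encodes an exchanger (NCKX2) of neurons in the forebrain, was at 70.2, 79.5 and 66.7 FPKM in Con and at 84.9, 91.9 and 62.7 in HMD. The groups overlapped, since HMD replicate 3 was the lowest and HMD replicate 2 the highest of the 6 libraries. The difference in log2(FPKM + 1) was 0.13 with an SE of 0.16 and a 95% interval of -0.25 to 0.51. Slc8a1, the exchanger also known from heart muscle (NCX1), differed by -0.24 (SE 0.18), and by -0.40 without HMD replicate 2 to -0.07 without HMD replicate 3. Its values of 17.2, 15.1 and 19.9 FPKM in Con and 14.9, 18.1 and 11.1 in HMD overlapped. Slc8a3 (NCX3) differed by 0.20 (SE 0.12), at levels of 2.73 to 3.04 FPKM in Con and 2.98 to 3.94 in HMD.

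Groups did not overlap for 2 of the 10 genes, where 9.37% of all genes tested had that pattern. Atp2b2 (PMCA2), a fast pump of neurons, was at 34.5, 35.6 and 27.5 FPKM in Con and at 38.6, 36.0 and 36.4 in HMD. Atp2b3 (PMCA3) was at 35.0, 36.2 and 38.4 FPKM in Con and at 33.6, 34.2 and 28.2 in HMD. The differences were 0.19 (SE 0.13) and -0.19 (SE 0.12), each with an adjusted p of 0.980 in limma. Slc24a3 was at 46.4 to 48.2 FPKM in Con and 46.9 to 48.0 in HMD, with a difference of 0.01 whose 95% interval ran from -0.21 to 0.23. The intervals of the 10 genes reached at most 0.67 on the log2 scale in size, so differences below that were not always detectable with 3 samples a group.

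Bet+HMD libraries differed from HMD libraries in 3 of the 10 genes. Slc24a3 fell, and Atp2b4 and Atp2b2 rose. Over all 13672 genes tested, 48.3% passed the same threshold, 22.8% higher and 25.5% lower. The median difference was 0.10 over the 10 genes and -0.03 over all genes. These figures depended on the scaling. With TPM, in which FPKM are rescaled to the same total in every library, 6 of the 10 passed, against 47.3% of all genes, and the median of the 10 was 0.31. With quantile normalization, which gives every library the same distribution of values, 6 passed, against 47.2% of all genes, and the median was 0.37.

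Slc24a3 encodes NCKX3, an exchanger found in many tissues and in brain. It was at 48.7, 48.7 and 47.7 FPKM in HMD and at 35.1, 34.2 and 35.2 in Bet+HMD. Every Bet+HMD library lay below every HMD library, and the spread within each group was small. The mean in Bet+HMD was 0.720 times that in HMD, a difference of -0.46 in log2(FPKM + 1) with an SE of 0.06 (adjusted p = 0.000896, limma). Without HMD replicate 1, the library with thalamus markers, the difference was -0.46 and the adjusted p 0.00428. The annotated Slc24a3 span (chr2:145167754-145642166, plus strand, GRCm38) overlaps 5 other genes, 3 of them on the opposite strand, and whether counting used the strand is not stated.

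Atp2b4 (chr1:133699457-133801041, minus strand, overlapping 2 other genes) encodes PMCA4, a pump expressed in many tissues. It was at 10.2, 14.2 and 12.9 FPKM in HMD and at 18.8, 19.2 and 19.9 in Bet+HMD. The groups did not overlap, and the lowest Bet+HMD library was well above the highest HMD library. The mean was 1.56 times that of HMD, with a log2 difference of 0.61 (SE 0.12, adjusted p = 0.00472, limma), and 0.48 with an adjusted p of 0.00580 without HMD replicate 1. The reads behind these values numbered 2160 or more per library.

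Atp2b2 (chr6:113743831-114042613, minus strand, overlapping 3 other genes, 2 of them on the opposite strand) was at 38.8, 36.7 and 36.7 FPKM in HMD and at 43.3, 45.1 and 44.2 in Bet+HMD. The groups did not overlap, but the step was smaller, 1.18 times in the mean. The log2 difference was 0.24 (SE 0.06, adjusted p = 0.0186, limma). This call was lost when the trend with gene length was removed (0.09, adjusted p = 0.281) and when all 3 groups shared one fit (adjusted p = 0.0873). It was also lost without Bet+HMD replicate 1, 2 or 3, where the adjusted p was 0.0600, 0.0871 and 0.0647.

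The other 7 genes did not pass on the FPKM scale, although 5 of them passed under another scaling. Slc24a4, an exchanger (NCKX4) known for olfactory neurons and enamel, was at 6.03, 8.43 and 6.10 FPKM in HMD and at 8.75, 10.2 and 7.96 in Bet+HMD (0.35, SE 0.14, adjusted p = 0.0731, limma). HMD replicate 2 overlapped with Bet+HMD replicate 3, and without HMD replicate 2 the gene passed (0.49, adjusted p = 0.0108). It also passed with TPM (0.58, adjusted p = 0.0163) and voom on recovered reads (0.49, adjusted p = 0.0129). Atp2b3 was at 33.5, 34.8 and 28.5 FPKM in HMD and at 37.1, 36.9 and 38.6 in Bet+HMD, without overlap (0.22, SE 0.09, adjusted p = 0.0788, limma). It passed without HMD replicate 2 (0.27, adjusted p = 0.0331), with TPM (0.42, adjusted p = 0.00777), with quantile normalization (0.45, adjusted p = 0.00600) and with voom (0.31, adjusted p = 0.00869). Slc24a2 was at 86.4, 94.3 and 64.0 FPKM in HMD and at 74.8, 75.8 and 80.5 in Bet+HMD, so that the Bet+HMD libraries lay inside the HMD range (-0.06, SE 0.14). Without HMD replicate 3 its difference was -0.23 with an adjusted p of 0.0435. Slc8a1, Slc8a2, Slc8a3 and Atp2b1 differed by 0.06 to 0.11 with overlapping groups. Of these, Atp2b1 (0.42, adjusted p = 0.00967) and Slc8a2 (0.38, adjusted p = 0.0141) passed with quantile normalization, and Slc8a3 passed with TPM (0.32, adjusted p = 0.0496). Non-overlapping groups were seen for 4 of the 10 genes and for 60.1% of all genes tested.

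Sequences are shown for Slc24a3 and Atp2b4, the 2 genes that passed in both betaine comparisons under every sample left out and that lay on opposite sides. They are the 250 bases before a RefSeq start site on GRCm38.p6, written 5′ to 3′ on the strand of the gene, with GC boxes (GGGCGG on either strand) in capitals.
Slc24a3 (chr2:145167525-145167774, plus strand): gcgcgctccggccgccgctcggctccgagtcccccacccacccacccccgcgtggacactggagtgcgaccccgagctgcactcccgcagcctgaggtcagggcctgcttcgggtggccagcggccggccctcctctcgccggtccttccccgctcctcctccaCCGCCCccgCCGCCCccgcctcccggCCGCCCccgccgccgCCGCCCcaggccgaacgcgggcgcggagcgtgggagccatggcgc
Atp2b4 (chr1:133753748-133753997, minus strand): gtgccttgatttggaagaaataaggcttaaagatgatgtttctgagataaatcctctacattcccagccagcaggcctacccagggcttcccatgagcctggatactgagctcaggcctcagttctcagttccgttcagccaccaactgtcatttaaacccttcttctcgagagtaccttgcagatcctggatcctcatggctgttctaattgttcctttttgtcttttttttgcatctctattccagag
The Slc24a3 window lies at the gene's 5′ end, overlaps its first GENCODE exon by 21 bases, and holds 35 CG pairs and 4 GC boxes at 80.8% G+C. The Atp2b4 window lies 47.3 kb inside the gene by GENCODE and is spanned by 2 of its 8 transcripts. It overlaps a GENCODE exon by 2 bases, and holds 2 CG pairs and no GC box at 45.6% G+C. Whether it acts as a promoter was not tested. Over 32851 RefSeq windows of this length, the medians were 6 CG pairs and 52.4% G+C, and 32.7% held a GC box. The E-box letters CACGTG were in neither window on either strand and in 6.02% of all windows. The cAMP response element TGACGTCA was likewise in neither and in 1.55% of all windows, and the TATA box letters TATAAA were in neither and in 12.4%. A second RefSeq start of Slc24a3, 74.9 kb inside the gene, has a window with 14 CG pairs and no GC box at 63.6% G+C. Windows of Atp2b1, which was not called on the FPKM scale, held 43 and 41 CG pairs and 4 and 3 GC boxes. GC boxes were also found before starts of Atp2b2 and Slc8a2. Such matches describe the letters alone, and a link to the changes in level was not tested.

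**Figure D2:**
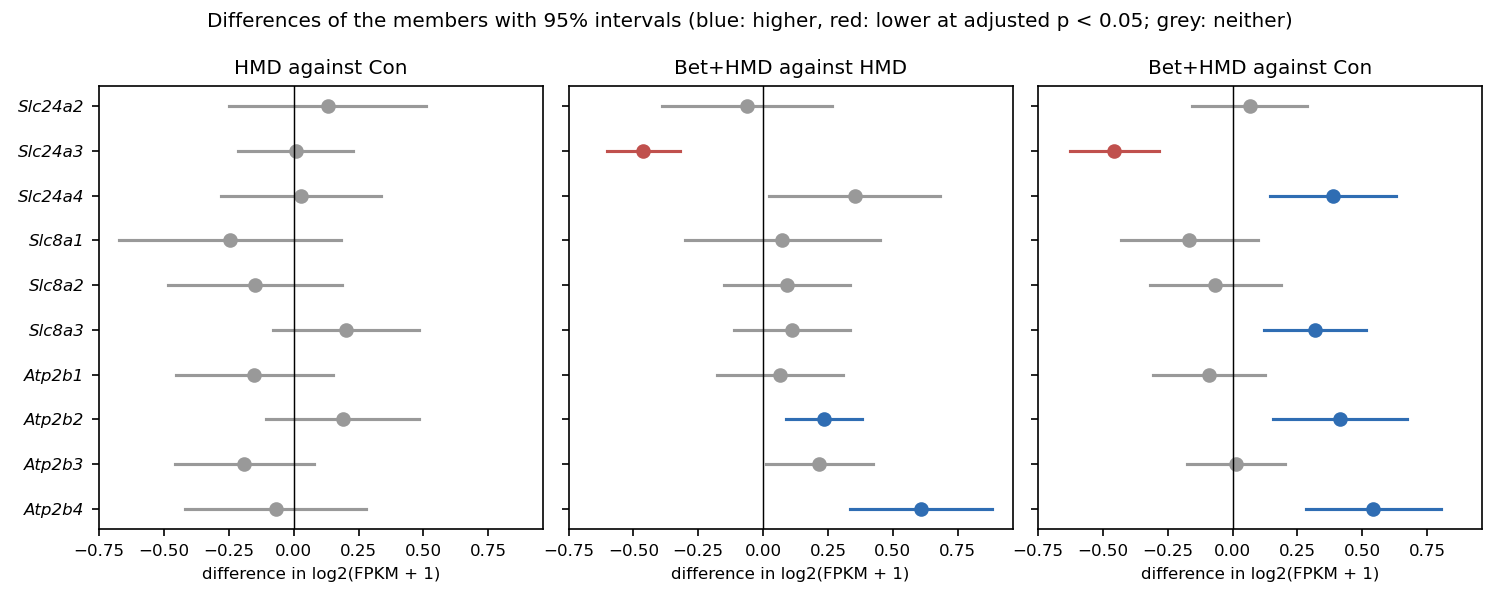
Difference in log2(FPKM + 1) (x axis) of the 10 genes (y axis) in each comparison, with the limma estimate as a point and its 95% interval as a line. All intervals of HMD against Con cross 0. In both betaine comparisons Slc24a3 lies at -0.46 and Atp2b4 at 0.54 to 0.61.

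Bet+HMD against Con gave 5 called genes among the 10, with Slc24a3 lower and Atp2b4, Atp2b2, Slc24a4 and Slc8a3 higher. Of all 13643 genes tested 39.7% were called, 19.4% higher and 20.4% lower. This comparison shares its Bet+HMD libraries with the one above. Slc24a3 was at 49.0, 47.1 and 48.3 FPKM in Con, above all Bet+HMD libraries, and its mean in Bet+HMD was 0.723 times that in Con (-0.46, SE 0.07, adjusted p = 0.00351, limma). Atp2b4 was at 14.5, 13.5 and 11.0 FPKM in Con, below all Bet+HMD libraries (0.54, SE 0.11, adjusted p = 0.00876, limma). Atp2b2 was at 35.0, 36.0 and 28.2 FPKM in Con, also below them, with Con replicate 3 lowest (0.42, SE 0.11, adjusted p = 0.0228, limma).

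Slc24a4 was at 6.63, 6.34 and 6.83 FPKM in Con and all 3 Bet+HMD libraries lay higher (0.39, SE 0.10, adjusted p = 0.0229, limma). Slc8a3, the least abundant exchanger, was at 2.76, 2.92 and 3.12 FPKM in Con and at 4.07, 3.84 and 3.80 in Bet+HMD (0.32, SE 0.08, adjusted p = 0.0217, limma). Its HMD libraries, at 3.99, 3.11 and 3.55 FPKM, reached into both ranges. The annotated span of Slc24a4 overlaps 3 other gene entries and that of Slc8a3 overlaps 1, all on the opposite strand. The calls of Atp2b2, Slc24a4 and Slc8a3 did not hold with every library left out in turn. Atp2b2 was lost with the gene length trend removed (0.24, adjusted p = 0.0524, limma) and without Bet+HMD replicate 1, 2 or 3 (adjusted p 0.0722, 0.0887 and 0.0788). Slc24a4 was lost without Con replicate 1 (0.0568) and without Bet+HMD replicate 1 or 2 (0.0708 and 0.0855). Slc8a3 was lost without Con replicate 1 (0.0550) and without Bet+HMD replicate 1, 2 or 3 (0.0944, 0.0783 and 0.0713), and with quantile normalization (0.21, adjusted p = 0.0741). The remaining 5 genes differed by -0.17 to 0.07 on the FPKM scale, and some of them passed under another scaling. Slc24a2 passed with TPM (0.29, adjusted p = 0.0374) and quantile normalization (0.48, adjusted p = 0.0114), and Atp2b3 with quantile normalization (0.29, adjusted p = 0.0278). Atp2b1 passed in opposite directions, higher with quantile normalization (0.31, adjusted p = 0.0345) and lower with the gene length trend removed (-0.31, adjusted p = 0.0459). Groups did not overlap for 5 of the 10 genes against 55.1% of all genes tested.

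Scaling bears on these values, because FPKM summed to 249135 to 258514 in Bet+HMD libraries and to 288439 to 307899 in the others of the later table. Rescaling to TPM moved the median difference of all genes to 0.16 against HMD and 0.17 against Con. Atp2b4 was higher under TPM (0.84 and 0.79), under quantile normalization (0.75 and 0.69) and with limma voom on recovered reads (0.74 and 0.66), and passed the threshold in each. Slc24a3 stayed negative in all of them. Against HMD it passed under TPM (-0.27, adjusted p = 0.0107) and quantile normalization (-0.20, adjusted p = 0.0308), and against Con it did not (-0.24, adjusted p = 0.0525, and -0.17, adjusted p = 0.112). Relative to the median of all genes, the TPM differences of Slc24a3 were -0.43 and -0.41. Taken the same way, they were smaller with quantile normalization, at -0.16 and -0.13. Against HMD, 5 of the 6 genes called with TPM were higher, as were 4496 of the 6470 called over all genes. Against Con, 5 passed with TPM and 6 with quantile normalization, all higher, where 39.7% and 38.8% of all genes passed. Of those called over all genes, 3980 of 5412 were higher with TPM and 2620 of 5296 with quantile normalization. Differences also varied with gene length, with medians of 0.39 for genes under 1 kb, -0.25 for those of 1 to 2 kb and 0.09 for those of 8 kb or more in Bet+HMD against HMD. With the trend of gene length removed, Atp2b4 was at 0.48 and 0.37 and Slc24a3 at -0.42 and -0.42, all past the threshold.

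**Figure D3:**
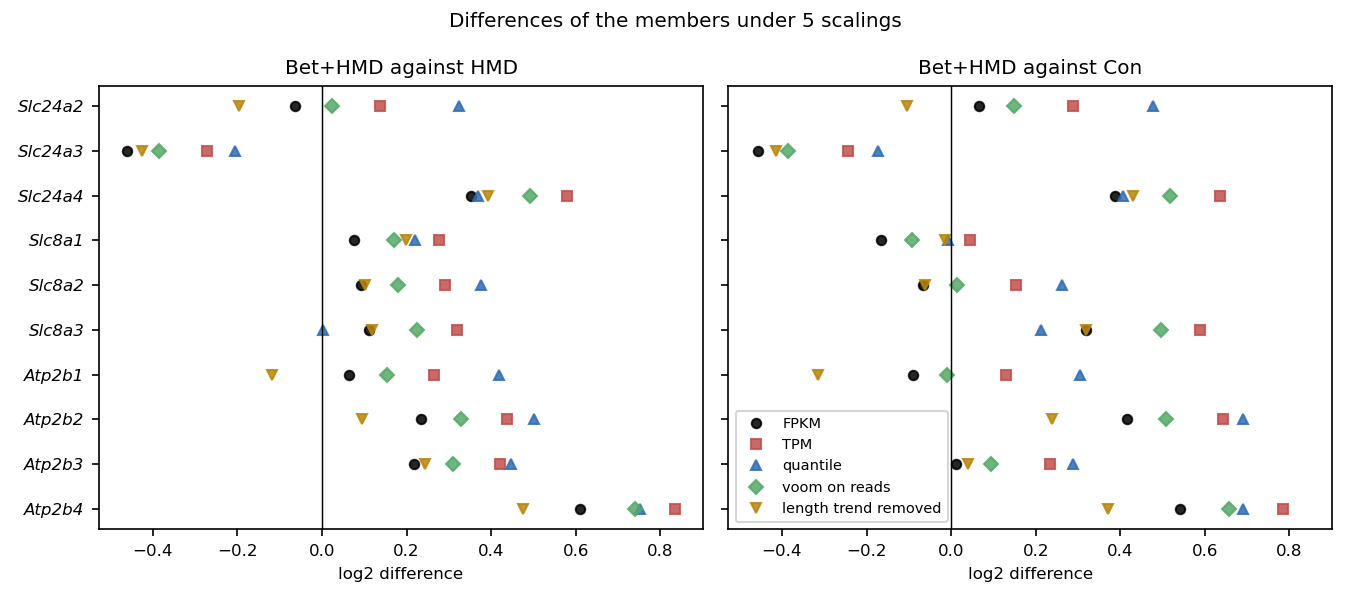
Log2 difference (x axis) of the 10 genes (y axis) in both betaine comparisons under 5 scalings, marked by symbol. Slc24a3 is left of 0 under all 5, and Atp2b2, Atp2b3, Atp2b4, Slc24a4 and Slc8a3 are right of 0. Of these, Atp2b3 comes as near as 0.012 (FPKM, against Con) and Slc8a3 as near as 0.003 (quantile, against HMD). Slc24a2 and Atp2b1 change sides in both comparisons.

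Shares within a family do not depend on the factor by which a library is scaled. In the NCKX family Slc24a3 made up 35.1% to 39.1% of the summed FPKM in Con, 32.1% to 40.5% in HMD and 28.4% to 29.6% in Bet+HMD. The mean share in Bet+HMD differed by -6.89 percentage points from HMD and by -8.72 from Con, without overlap in either comparison. The exact two-sided permutation test gave 0.1 for both, which is the smallest p that 3 against 3 samples allow, so no share could pass the threshold. Slc24a2 took 63.7% ± 1.17 of the family in Bet+HMD (SD, n = 3) and 59.3% ± 4.32 in HMD, also without overlap, although its own level was not called. In the PMCA family Atp2b4 made up 11.1% ± 0.0832 in Bet+HMD against 8.13% ± 0.892 in HMD and 8.09% ± 1.17 in Con, and again the groups did not overlap (exact permutation p = 0.1 each). Atp2b1 (PMCA1), the pump present in nearly all cells, made up 41.9% ± 0.834 in Bet+HMD and 48.2% ± 2.45 in Con. In the NCX family Slc8a2 (NCX2), the exchanger typical of brain, held 71.4% to 71.8% of the family on average in all 3 groups. The NCX shares rest on the deposited length of Slc8a1, which is shorter than its GENCODE exons. All 10 shares overlapped between HMD and Con. Between Bet+HMD and HMD the shares of Slc24a2, Slc24a3, Slc24a4 and Atp2b4 did not overlap. The Slc24a4 share was 7.44% in Bet+HMD, against 5.01% in HMD and 5.15% in Con. Between Bet+HMD and Con only the shares of Slc8a1 and Slc8a2 overlapped. A lack of overlap was thus not particular to Slc24a3 and Atp2b4.

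**Figure D4:**
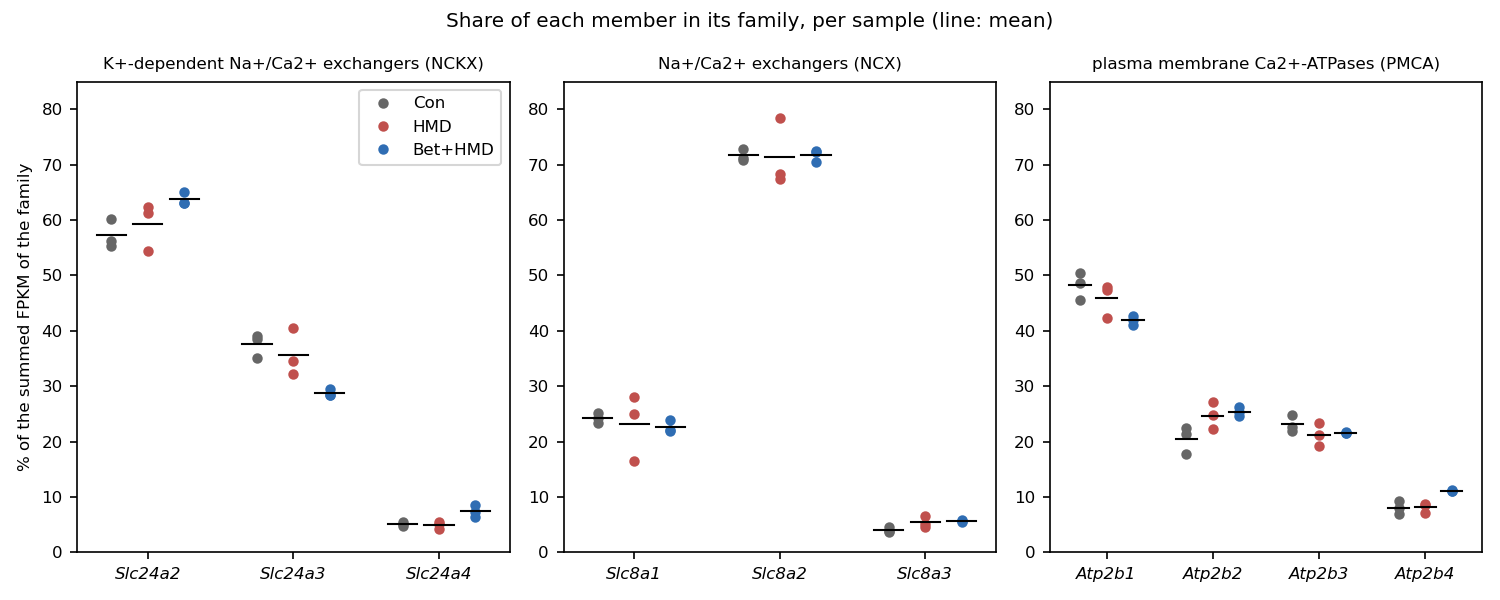
Share of each gene in the summed FPKM of its family (y axis, %), with 1 point per library of the later table and the mean as a line. Within each family the order of the Slc24 and Slc8 genes is the same in all groups. Slc24a3 is lower and Slc24a2, Slc24a4 and Atp2b4 are higher in Bet+HMD than in both other groups, without overlap.

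Summed over a family, NCKX stood at 128 ± 5.49 FPKM in Con, 137 ± 17.2 in HMD and 121 ± 2.64 in Bet+HMD, with overlapping ranges. NCX stood at 72.9 ± 8.69, 65.4 ± 4.52 and 69.1 ± 0.629 FPKM, and these ranges overlapped. The NCX sums also rest on the deposited length of Slc8a1. PMCA stood at 161 ± 6.46, 152 ± 11.2 and 174 ± 4.57 FPKM. Every Bet+HMD library had a higher PMCA sum than every Con and HMD library, with 170.7 the lowest in Bet+HMD and 168 the highest elsewhere.

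Calcium is also moved by pumps and channels of organelles, taken up by mitochondria and bound by buffer proteins, and 41 such genes were followed, together with partners of the pumps. Between HMD and Con, 36 of them were tested and 0 passed. The 2 with the smallest p were Mcub, a subunit of the mitochondrial uniporter that lowers its activity (-0.25), and Orai1, a store-operated calcium channel (0.30). In Bet+HMD against HMD 20 of 36 passed, 3 higher and 17 lower, where 48.3% of all genes passed, and the median over the 36 was -0.23. Against Con 14 passed, 3 higher and 11 lower, where 39.7% of all genes passed, and the median was -0.24. Under TPM the counts were 6 higher and 9 lower against HMD, and 6 higher and 5 lower against Con, with medians of -0.07 and -0.04. Over all genes TPM called 4496 higher and 1974 lower against HMD, and 3980 higher and 1432 lower against Con. Quantile normalization gave 8 higher and 9 lower against HMD and 7 higher and 8 lower against Con, with medians of -0.01 and 0.02. Over all genes it called 3041 higher and 3419 lower against HMD, and 2620 higher and 2676 lower against Con.

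The 3 that rose in both were Ryr3 and Ryr2, which release calcium from the endoplasmic reticulum, and Slc24a5, an exchanger of intracellular membranes. Ryr3 was at 1.89, 2.59 and 1.79 FPKM in HMD and at 6.86, 7.03 and 6.76 in Bet+HMD (1.36, SE 0.11, adjusted p = 0.000157, limma). Ryr2 was at 8.13, 10.1 and 7.54 FPKM in HMD and at 13.1, 14.0 and 14.3 in Bet+HMD (0.63, SE 0.11). Neither gene's groups overlapped, and both were also higher under TPM and quantile normalization. With the gene length trend removed Ryr2 was at 0.30 against HMD, still past the threshold, and at 0.17 against Con, where the call was lost (adjusted p = 0.208, limma). Slc24a5 rose by 0.91 against HMD and by 0.97 against Con, with 1.32 to 1.80 FPKM in HMD and 3.80 to 4.10 in Bet+HMD.

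All 3 cytosolic buffers fell against HMD. Calb1 (calbindin), a marker of granule and CA1 neurons, was at 32.7, 37.2 and 34.4 FPKM in HMD and at 22.7, 22.8 and 22.2 in Bet+HMD (-0.60, SE 0.07). Calb2 (calretinin) differed by -1.44 and Pvalb (parvalbumin) by -0.85, both with non-overlapping groups. Against Con, only Calb1 of the 3 passed (-0.57), while Calb2 differed by -0.87 with an adjusted p of 0.0611 in limma and Pvalb by -0.55 with 0.0594. Orai3, a store-operated channel, fell by 0.73 against Con, and Mcub fell by 0.74. Atp1b1, a sodium pump subunit, fell by 0.54 against HMD and Calm3, a gene for calmodulin, which activates PMCA pumps, fell by 0.56 against Con. Both of these depended on the scaling, with differences of 0.01 and -0.0003 under quantile normalization. They stayed past the threshold under TPM (-0.34 each), with voom (-0.45 and -0.48) and with the gene length trend removed (-0.42 and -0.36). Of 6 partners of the PMCA pumps 4 were called against HMD, all lower, where 25.5% of all genes were called lower. Among them were Calm3 (-0.45) and the PMCA subunits Nptn (neuroplastin, -0.34) and Bsg (basigin, -0.39), named here after their values were seen. None of these passed under TPM, and quantile normalization gave 0.06, 0.03 and -0.01. With voom Calm3 (-0.37) and Nptn (-0.26) passed, and so they did with the gene length trend removed (-0.29 and -0.37). Bsg passed in neither (-0.31 and -0.17).

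Markers of cell types moved with the betaine comparisons. Of 13 marker lists, 8 had lower sums in every Bet+HMD library than in every HMD library, and 7 had lower and 1, the thalamus list, higher sums than in Con. These counts depended on the scaling. With the sums rescaled to TPM, a setting added after the data were seen, 3 lists (CA3, interneuron and blood cell) were lower than in HMD. Against Con 2 were then lower (CA3 and interneuron) and 2 higher (thalamus and striatum), and the astrocyte and general neuron lists overlapped in both comparisons. In FPKM the 4 CA3 markers summed to 15.3 to 17.0 FPKM in Bet+HMD against 32.1 to 44.7 in HMD and 31.5 to 43.7 in Con. Among these 4 only Bok was called against HMD, at 8.58 to 9.99 FPKM in Bet+HMD against 25.9 to 35.7 in HMD. In FPKM the 4 interneuron markers summed to 177 to 207 FPKM in Bet+HMD against 239 to 315 in HMD and 240.1 to 272 in Con, and the 5 astrocyte markers to 195 to 196, 227 to 248 and 228 to 235. The sums of the 4 dentate gyrus markers overlapped in all comparisons. Markers within a list did not all move alike. Against HMD, of 5 endothelium markers 1 was called higher and 2 lower. Of the 4 general neuron markers 1 was called in each direction, and of the 5 astrocyte markers 2 were called, both lower. In bulk tissue, fewer cells of a type and less RNA per cell cannot be told apart, and the part of cell types in the values of Slc24a3 and Atp2b4 was not tested. Thalamus sums also did not overlap between HMD and Con in the earlier table, at 35.4 to 109.7 FPKM in HMD against 22.0 to 28.0 in Con, and the other 12 lists overlapped.

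Genes with the most similar pattern over the 9 libraries of the later table were looked up for the most abundant gene of each family in Con, among 11915 protein-coding genes. For Slc24a2 they were Ppm1l (Pearson r = 0.98), Arhgef12 (0.94) and Glg1 (0.93). For Slc8a2 they were Pias4, Hdac2 and Twnk (0.94 each), and for Atp2b1 they were Cpne8 (0.92) and Vxn (0.91). After the group means were subtracted, r was 0.99, 0.95 and 0.98 for the first 3, 0.95, 0.93 and 0.93 for the next, and 0.95 and 0.90 for the last. These values come from 9 libraries that differ in depth and, by the marker sums, in tissue composition, and were picked as the highest of all genes. The part of such differences in the values of r was not tested.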

How the data were processed

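Bulk RNA-seq of the hippocampus gave 9 libraries in 3 groups of 3, grouped by their titles. Columns with the prefix COL were read as Con, which is inferred from the other prefixes. Per the study's methods, RNA was depleted of ribosomal RNA and sequenced in pairs from stranded libraries. The submitters' processing notes name HISAT2 2.1.0, featureCounts 1.5.0-p3 and mm10, while the study's methods name other versions of both tools. The authors deposited FPKM per gene in 2 tables, with each gene's length in bases as another column. FPKM multiplied by gene length and a fitted library size gave whole reads (within 0.05) for 100% of values, so depth was known. In the later table that size was 1.042 to 1.049 times the assigned reads in Bet+HMD and 0.953 to 1.026 times in the others. Assigned reads ran from 16449388 to 18566712 (earlier table) and from 16031464 to 18291952 (later table). A floor of 3 reads was at most 1.87e-05% of a library and covers counting error only. Each of the 6 shared libraries had 0.312% to 5.49% fewer reads in the later table, so tests stayed within a table. Of the gene identifiers, 54495 were in GENCODE M21 (GRCm38), 98.3% of them at the same position.

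limma 3.58.1 (R 4.3.3; empirical Bayes with trend) modelled log2(FPKM + 1) in the samples of each comparison, over genes with a mean of at least 1 FPKM. On this scale the change of genes of low level is understated. p-values were two-sided, adjusted by Benjamini-Hochberg over all genes tested, with a threshold of 0.05. Family shares were tested by exact two-sided permutation (scipy 1.17.1). Named genes were the 10 members, up to 5 called calcium-handling genes per direction with the smallest adjusted p (or the 2 with the smallest p), marker lists, and the 3 genes most like the leading member of each family. Members and lists were chosen with earlier results of these data known. Some genes that this rule names are not reported here. RefSeq start site windows matched 9 of the 10 members.

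Same-numbered libraries did not deviate together in every pair, so the replicate number was used as a block only in an alternative. Further settings tried were TPM, a filter at 5 FPKM or none, a pseudocount of 0.1, quantile normalization, median ratio centring, removal of the gene length trend, no trend in the moderation, 1 fit for all 3 groups, HMD against Con in the later table, voom on recovered reads, shares of recovered reads, and each sample left out. Marker sums in TPM were added after the data were seen.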

Additional observations from a re-analysis of the deposited data

How the results depend on the processing

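In all 17 alternatives Atp2b4 passed in both betaine comparisons and Slc24a3 passed against HMD, whereas Slc24a3 against Con passed in 15 of 17. The count of called members against HMD was 3, and 6 with TPM, 6 with quantile normalization and 5 with voom. It ran from 2 to 5 with a sample left out. Against Con it was 5, and 2 with the replicate block. It ran from 2 to 5 with a sample left out, being 2 without Bet+HMD replicate 1 or 2 and 3 without Con replicate 1 or Bet+HMD replicate 3. Correlations of deviations between same-numbered samples ran from -0.176 to 0.346, with a mean of 0.203 for HMD against Con. Whether the numbers pair the samples is not settled by 3 libraries a group. With the block, 1034 genes had an unadjusted p under 0.05 between HMD and Con, and 0 were called. Under the block Atp2b2 was lost against HMD (adjusted p = 0.0829, limma) and Slc24a4 passed (0.0316). Against Con the block lost Atp2b2 (0.0588), Slc24a4 (0.0683) and Slc8a3 (0.0849), and Calb2 (0.0470) and Pvalb (0.0420) passed. Called pathway genes against Con numbered 14, and 9 to 22 with a sample left out (9 without Bet+HMD replicate 1 or 3, 22 without Con replicate 3). At a mean of 5 FPKM or more, 4166 of 7549 genes were called against HMD and 3260 of 7585 against Con. The main fits called 6607 of 13672 and 5422 of 13643. At that filter 1365 were higher and 2801 lower against HMD, and 1080 higher and 2180 lower against Con. The median difference against HMD was then -0.14 over all genes and -0.29 over the 29 pathway genes tested. Called genes in all numbered 3302 to 6269 against Con with a sample left out. Between HMD and Con 0 were called (592 at an unadjusted p under 0.05), 9 with all groups in one fit, and 0 to 2 with a sample left out. Slc8a3 gave no value at the filter of 5 FPKM.

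Log2 differences that changed sign were all of members not called in that comparison on the FPKM scale. Against HMD, Slc24a2 was at 0.14 with TPM, 0.33 with quantile normalization and 0.024 with voom, and Atp2b1 at -0.12 with the length trend removed. With a sample left out, Slc24a2 ran from -0.23 to 0.050, Slc8a1 from -0.10 to 0.24 and Atp2b1 from -0.034 to 0.15. Against Con, TPM gave 0.046 for Slc8a1, 0.15 for Slc8a2 and 0.13 for Atp2b1, quantile normalization gave 0.26 for Slc8a2 and 0.31 for Atp2b1, voom gave 0.014 for Slc8a2, median ratio centring gave -0.0044 for Atp2b3, and length trend removal gave -0.10 for Slc24a2. With a sample left out, Slc8a2 ran from -0.17 to 0.0014 and Atp2b3 from -0.022 to 0.053. Between HMD and Con, Slc24a3 was at -0.0017 with voom and ran from -0.0041 to 0.022 with a sample left out, Slc24a4 from -0.10 to 0.10 and Atp2b4 from -0.18 to 0.041. Shares changed sign too, in percentage points. Between HMD and Con the later table gave 0.0388 for Atp2b4, and with a sample left out the ranges were -0.427 to 0.204 (Slc24a4), -3.59 to 2.03 (Slc8a1), -3.55 to 1.77 (Slc8a2) and -0.591 to 0.580 (Atp2b4). Against HMD they were -3.94 to 1.86 (Slc8a1), -1.62 to 3.92 (Slc8a2), -0.237 to 0.750 (Slc8a3), -0.486 to 1.91 (Atp2b2) and -0.714 to 1.43 (Atp2b3). Against Con the share of recovered reads gave -0.561 for Slc8a2, and the range was -0.261 to 0.741. The cause was not tested.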
